A study of Homo sapiens with 3 samples.

Results

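The 8 genes described here carry chloride, sulfate and sodium across the intestinal epithelium or make up the guanylin signal that sets this transport. They are CFTR, SLC12A2, SLC26A2, SLC26A3, SLC9A3, GUCA2A, GUCA2B and GUCY2C, taken by symbol from the 33538 genes of the count matrices, and all 8 had UMIs in each library. They were measured by single-cell RNA-seq (Chromium 3′) in a Transwell co-culture of the colorectal carcinoma lines Caco-2 (passage 8) and HT29 (passage 13), seeded at 9 parts Caco-2 to 1 part HT29 and trypsinized on day 23. The groups were 2 untreated control libraries and 1 library given 1 ng/ml Escherichia coli O111:B4 lipopolysaccharide (LPS) in the apical chamber from day 22 for 24 h. No library used here held a single line, so each cell's line was read from its RNA, and both lines are tumour-derived models of intestinal epithelium.

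In the gut, fluid secretion needs SLC12A2 (NKCC1), which loads chloride into the cell through the basolateral membrane, and CFTR, the apical channel through which chloride and bicarbonate leave. Absorption of salt runs through the paired apical exchangers SLC9A3 (NHE3, sodium for protons) and SLC26A3 (DRA, chloride for bicarbonate). SLC26A2 (DTDST) takes up sulfate, which is activated and then added to mucins and other substrates. GUCA2A (guanylin) and GUCA2B (uroguanylin) are small peptides released into the lumen that bind GUCY2C, the apical guanylyl cyclase C, and the cGMP it makes opens CFTR and slows SLC9A3 through the kinase PRKG2.

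In GRCh38 coordinates from GENCODE v44, the hormone genes are neighbours on chromosome 1, with GUCA2B at chr1:42153410-42155820 on the plus strand and GUCA2A at chr1:42162690-42164745 on the minus strand, 6869 bases apart. CFTR lies at chr7:117287120-117715971 (plus), SLC26A3 at chr7:107765467-107803225 (minus), SLC9A3 at chr5:470456-524449 (minus), SLC12A2 at chr5:128083766-128189677 (plus), SLC26A2 at chr5:149960758-149993455 (plus) and GUCY2C at chr12:14612632-14696599 (minus). The promoters below are shown because GUCA2A, GUCA2B and SLC26A3 rose together in the enterocyte-like cells described later while SLC12A2 fell there. They are the 250 bases before the RefSeq start (GRCh38.p14), 5′ to 3′ on the strand of the gene. The set of promoters used here held 7 of the 8 genes. GUCY2C, which also rose in those cells, had no entry in it and was not searched. Capitals mark 3 motifs searched on both strands: GTTAAT, found in sites of HNF1, CAAAGGTCA, found in sites of HNF4, and GATAAG, bound by GATA factors, which reads CTTATC on the other strand.

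SLC26A3, chr7:107803224-107803473: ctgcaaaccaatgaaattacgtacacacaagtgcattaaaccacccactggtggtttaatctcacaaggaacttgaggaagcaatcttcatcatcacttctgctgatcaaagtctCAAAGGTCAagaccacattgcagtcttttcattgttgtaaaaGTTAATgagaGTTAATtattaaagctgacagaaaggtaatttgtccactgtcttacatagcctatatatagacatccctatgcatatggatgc

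GUCA2A, chr1:42164746-42164995: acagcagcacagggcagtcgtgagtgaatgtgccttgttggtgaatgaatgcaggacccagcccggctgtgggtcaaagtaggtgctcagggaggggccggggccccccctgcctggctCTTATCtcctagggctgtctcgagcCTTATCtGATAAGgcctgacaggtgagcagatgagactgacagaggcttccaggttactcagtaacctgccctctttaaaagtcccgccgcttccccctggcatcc

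GUCA2B, chr1:42153160-42153409: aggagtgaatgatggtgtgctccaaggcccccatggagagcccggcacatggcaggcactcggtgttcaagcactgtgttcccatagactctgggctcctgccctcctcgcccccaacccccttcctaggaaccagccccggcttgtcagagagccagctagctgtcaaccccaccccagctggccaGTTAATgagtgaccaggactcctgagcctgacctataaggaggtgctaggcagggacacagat

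SLC12A2, chr5:128083516-128083765: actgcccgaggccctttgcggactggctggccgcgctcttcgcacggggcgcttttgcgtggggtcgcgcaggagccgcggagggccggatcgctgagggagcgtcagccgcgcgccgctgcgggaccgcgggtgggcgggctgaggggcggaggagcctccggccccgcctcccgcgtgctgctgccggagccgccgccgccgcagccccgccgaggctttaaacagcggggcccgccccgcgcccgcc

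SLC26A3 held 2 HNF1 motifs, 93 and 83 bases before the start, and 1 HNF4 motif at 135 bases. GUCA2B held 1 HNF1 motif 63 bases before the start, and GUCA2A held 3 GATA motifs at 131, 106 and 99 bases, the last of them on the printed strand and the others on the opposite one. Over the 35116 RefSeq promoters of this length, 6.23% held GTTAAT, 0.339% held CAAAGGTCA and 5.65% held GATAAG. A search for TTTAT, a core of CDX sites that 32.7% of promoters hold, found no match in the 7. SLC12A2 held none of the motifs and was 79.6% G and C, against 37.6% in SLC26A3, 58.8% in GUCA2A, 60.4% in GUCA2B and a median of 58% over all promoters. The promoters of SLC26A2 and SLC9A3, which also rose in enterocyte-like cells, and of CFTR, which fell, held none either. Their G and C made up 66%, 82% and 61.2%. These are matches of letters, not binding sites, and the motifs were chosen after the promoters had been read.

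The libraries held 5811, 6495 and 6838 barcodes, and 4633, 4989 and 4850 cells were kept in control 1, control 2 and the LPS library, with medians of 5447, 4105 and 3574 UMIs. A UMI is a tag that counts 1 captured molecule, so levels are given as CPM, a gene's share of the UMIs of its group on the usual scale, with no dependence on gene length. Cells with the profile of Caco-2 numbered 3920, 3976 and 3961 (called Caco-2-line) and those with that of HT29 663, 953 and 808 (HT29-line), with 1.08% to 1.67% of cells between the lines left out. The split used the study's line signatures from other bulk samples without the 8 genes, and the HT29 signature made up 15.7% to 16.5% of the UMIs of HT29-line cells against 9.60% to 9.89% of Caco-2-line cells. Libraries shared at most 5 kept barcodes per pair and no column of counts. The study's methods name 3 Transwells taken for libraries, with cells of the same lines and passages, so p-values speak only for these 3 libraries. For lines and classes, edgeR adds prior degrees of freedom, estimated over all genes, to the 2 from the libraries. The prior was 17.55 for the lines, 30.92 for enterocyte-like cells and 97.63 for goblet-like cells. With pathway genes left out of the features it was 142.2 and infinite for these 2 classes. The p-values thus rest mostly on a spread shared by all genes. Of the markers of other cell types, the 6 stromal or immune genes together reached 17.7 to 33.9 CPM per line and library, those of BEST4 cells 4.99 to 8.76 and those of enteroendocrine cells 47.5 to 90.6. Colonocyte markers reached 104 to 132 CPM in the HT29-line, from CEACAM7 with the other 5 at 0, against 3.15 to 5.75 in the Caco-2-line, and fetal genes 28.9 to 60.9 CPM in the Caco-2-line against 3.02 to 4.45 in the HT29-line. The part of these in the differences between the lines was not tested.

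The lines differed in which of the transporters they carried. Secretory SLC12A2 was 11.4-fold higher in the HT29-line, while SLC26A2, SLC26A3 and GUCY2C were each about 13-fold higher in the Caco-2-line (13.6, 13.3 and 12.9) and GUCA2A was 4.81-fold higher there. CFTR and SLC9A3 stood at like levels in both. In the HT29-line, SLC26A2, SLC26A3 and GUCY2C lay at the percentage of most enterocyte markers, as given below. Their folds, and how alike these are, are therefore not read as ratios of expression. Of the 8 genes, 2 were higher in the HT29-line and 4 in the Caco-2-line at an adjusted p under 0.05, beside 72.6% of all 14035 genes tested (34.6% higher in the HT29-line, 38% in the Caco-2-line), so that the count is near the background. By size, 5 of the 8 differed by more than 2 on the log2 scale, against 18.8% of all genes, and the median absolute log2 difference of the 8 was 2.89, against 0.76. The 8 genes were chosen with earlier results of these data known. Such contrasts with all genes, here and in the classes below, therefore describe the set and do not test it.

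**Figure D1:**
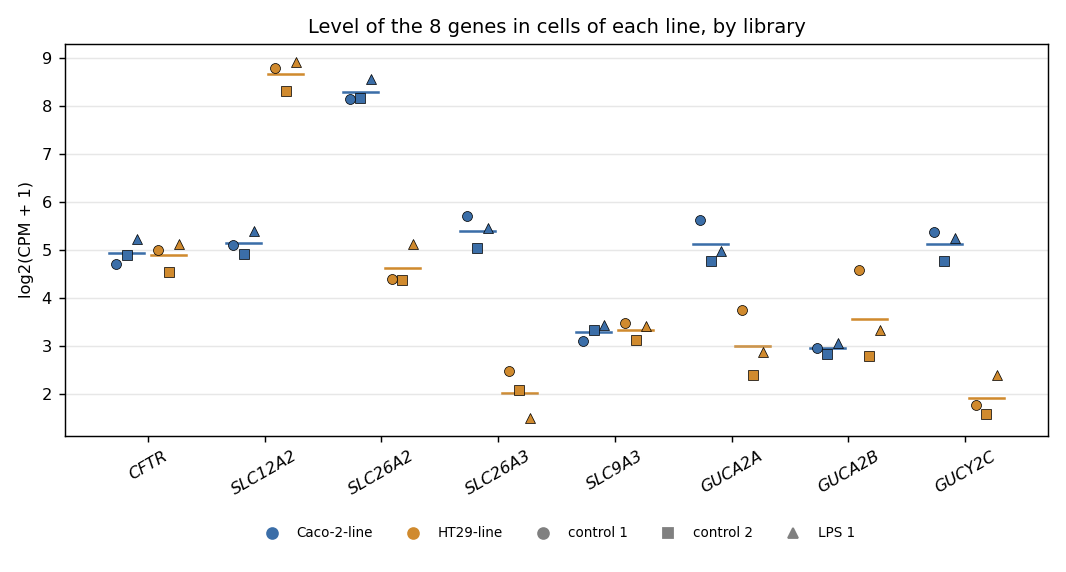
Level of each gene, as log2(CPM + 1), in Caco-2-line cells (blue) and HT29-line cells (orange) of the 2 controls (circle, square) and the LPS library (triangle), with a line at the mean of the 3. SLC12A2 stood above in the HT29-line in all 3 libraries, and SLC26A2, SLC26A3, GUCA2A and GUCY2C above in the Caco-2-line, while the points of CFTR and SLC9A3 overlapped.

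On the secretory side, SLC12A2 reached 444 CPM in the HT29-line of control 1, 316 in control 2 and 484 in the LPS library. In the Caco-2-line it stood at 33.3, 29.2 and 41.2 CPM. The lowest HT29-line value was thus far above the highest Caco-2-line value, and the log2 difference was 3.51 (SE 0.09, adjusted p = 1.28e-17, edgeR). After thinning every cell to 1500 UMIs, 30.5% to 42.0% of HT29-line cells had an SLC12A2 UMI, against 3.95% to 5.53% of Caco-2-line cells. CFTR, its apical partner in chloride secretion, stood at 24.9, 28.5 and 36.5 CPM in the Caco-2-line and at 30.7, 22.2 and 33.8 CPM in the HT29-line. The ranges overlapped, and the log2 difference of -0.11 (SE 0.12, adjusted p = 0.453) lay between -0.35 and 0.14 at 2 SE. The annotated span of CFTR overlaps other genes, and the 5 of them in the files had 78 to 96 UMIs per library in all.

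Among the exchangers, SLC26A2 was the most abundant of the 8 genes in the Caco-2-line, at 280.2, 285 and 376 CPM in control 1, control 2 and the LPS library. In the HT29-line it stood at 19.9, 19.5 and 33.8 CPM. A UMI of it was found in 55.2% to 61.6% of Caco-2-line cells and 4.62% to 9.16% of HT29-line cells, at median depths of 3572 to 5456.5 and 3588 to 5396 UMIs. The log2 difference was -3.77 (SE 0.11, adjusted p = 6.10e-17). SLC26A3 stood at 50.8, 31.8 and 42.6 CPM in the Caco-2-line and at 4.56, 3.21 and 1.81 CPM in the HT29-line, where 19, 13 and 6 UMIs were counted in all. The groups did not overlap (log2 difference -3.73, SE 0.18, adjusted p = 3.62e-13). SLC9A3, the sodium side of the same absorptive pair, was low throughout, at 7.61, 9.08 and 9.76 CPM in the Caco-2-line and 10.1, 7.66 and 9.67 CPM in the HT29-line. Its ranges overlapped (log2 difference 0.00, SE 0.18, adjusted p = 0.998), with an interval of -0.36 to 0.36 at 2 SE. The annotated span of SLC9A3 overlaps 4 other genes. Those in the files, EXOC3 and AC106772.2, had 428, 391 and 298 UMIs in all, against 238, 218 and 200 of SLC9A3. PP7080, on the same strand as SLC9A3, is not in the files. The part of overlapping genes in the SLC9A3 counts was not tested.

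Of the guanylin genes, GUCA2A stood at 48.0, 26.3 and 30.6 CPM in the Caco-2-line and at 12.5, 4.202 and 6.34 CPM in the HT29-line. The groups were apart in each library (log2 difference -2.27, SE 0.15, adjusted p = 5.06e-11). The receptor gene GUCY2C followed it, with 40.7, 26.1 and 36.7 CPM against 2.40, 1.98 and 4.23 CPM (log2 difference -3.69, SE 0.19, adjusted p = 9.09e-13), the HT29-line values resting on 10, 8 and 14 UMIs. The HT29-line levels of SLC26A2, SLC26A3 and GUCY2C were 7.79%, 7.66% and 8.32% of those in the Caco-2-line, means of 3 libraries. For the 12 enterocyte markers the same percentage had a median of 7.49% and was highest in DPP4, at 45.9%, and APOA4, APOC3 and FABP1 stood at 5.23%, 6.47% and 10.04%. These 3 genes thus lay in the HT29-line at the percentage of most enterocyte markers, and their UMIs there are not read as expression here. Single HT29-line cells held up to 9, 10 and 10 SLC26A2 UMIs in control 1, control 2 and the LPS library. The part of free RNA from Caco-2-line cells in the UMIs of the 3 genes was not tested. With no doublets removed the differences of GUCY2C and SLC26A2 were -2.78 and -3.17, and with cells thinned those of GUCY2C and SLC26A3 were -4.34 and -4.41. GUCA2B went the other way. It stood at 6.74, 6.08 and 7.30 CPM in the Caco-2-line and at 22.8, 5.93 and 9.06 CPM in the HT29-line, so that control 2 showed no excess in the HT29-line. The log2 difference of 0.82 (SE 0.24, adjusted p = 0.0052) was lost without control 1 (0.09, adjusted p = 0.767) and with DESeq2 (0.67, adjusted p = 0.0855). In control 1, 1 goblet-like cell held 33 of the 95 HT29-line UMIs, and the level without that cell was 14.9 CPM.

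Within the Caco-2-line, the enterocyte-like cells (713, 557 and 579 cells) were compared with all other Caco-2-line cells. This class was named from enterocyte markers such as APOA4 (7320 CPM against 333, means of 3 libraries) in clusters made without the 8 genes. The absorptive and guanylin genes were higher in it and the secretory pair lower: SLC26A3 8.08-fold, GUCA2A 5.36-fold, GUCA2B 5.08-fold, GUCY2C 4.15-fold, SLC26A2 2.13-fold and SLC9A3 1.82-fold higher, and SLC12A2 5.97-fold and CFTR 1.44-fold lower. All 8 passed the test, beside 54.8% of the 13415 genes tested (27.8% higher, 27% lower), and 5 of the 8 differed by more than 2 on the log2 scale, against 5.64% of all genes. This contrast too is a description of genes chosen with earlier results known.

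SLC26A3 rose to 157, 130.02 and 179 CPM in the enterocyte-like cells of control 1, control 2 and the LPS library, against 29.4, 16.8 and 19.97 CPM in the others (log2 difference 3.01, SE 0.09, adjusted p = 1.71e-24). These cells were 18.2%, 14.01% and 14.6% of the Caco-2-line cells and held 51.9%, 54.1% and 59.8% of its SLC26A3 UMIs. GUCA2A rose to 139, 82.9 and 89.5 CPM against 29.6, 17.7 and 20.8 CPM (2.42, SE 0.08, adjusted p = 4.46e-23). GUCY2C, the receptor of the guanylins, rose with them, to 95.4, 72.4 and 99.97 CPM against 29.6, 19.02 and 26.2 CPM (2.05, SE 0.08, adjusted p = 5.74e-21). GUCA2B, at 18.5, 23.0 and 16.8 CPM against 4.36, 3.51 and 5.72 CPM, rose by as large a factor from a lower level (2.34, SE 0.18, adjusted p = 6.38e-13). In each of these 4 genes the lowest enterocyte-like value lay above the highest value in the other cells.

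SLC26A2 was already present in most other Caco-2-line cells, and rose from 255, 251 and 333 CPM to 407, 507 and 635 CPM (1.09, SE 0.06, adjusted p = 1.30e-16). SLC9A3 rose from 6.78, 8.56 and 9.15 CPM to 11.7, 12.4 and 13.4 CPM (0.86, SE 0.17, adjusted p = 5.33e-05), a difference carried by 115 UMIs in the enterocyte-like cells. SLC12A2 fell from 39.3, 32.8 and 46.4 CPM to 3.52, 5.28 and 9.66 CPM, that is to 15, 14 and 23 UMIs (-2.58, SE 0.17, adjusted p = 3.62e-15), with -1.89 when no doublets were removed and -3.60 when cells were thinned. The part of free RNA from HT29-line cells in these few UMIs was not tested. Among the other Caco-2-line cells were those of C8, 1 of the clusters described below, with a median of 6795 UMIs. Its leading genes SPRR1B, LY6D, RARRES2 and LY6G6C also led the HT29-line cluster H3. The part of C8 in the SLC12A2 level of the other cells was not tested. CFTR fell least, from 25.2, 31.1 and 39.7 CPM to 23.4, 11.7 and 17.2 CPM (-0.53, SE 0.16, adjusted p = 0.0049). The log2 difference of CFTR was -1.11 without control 1 and -0.31 without control 2. After thinning, 2.95% of enterocyte-like cells had a CFTR UMI in control 1, against 2.84% of the others, so no fall was seen there at equal depth. In control 2 the shares were 1.97% against 4.27%, and in the LPS library 2.59% against 5.23%. edgeR scales libraries by TMM, and log2 ratios of plain CPM were lower than its values by a median of 0.22 over genes at 10 CPM or more, which is smaller than each of the 8 differences.

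**Figure D2:**
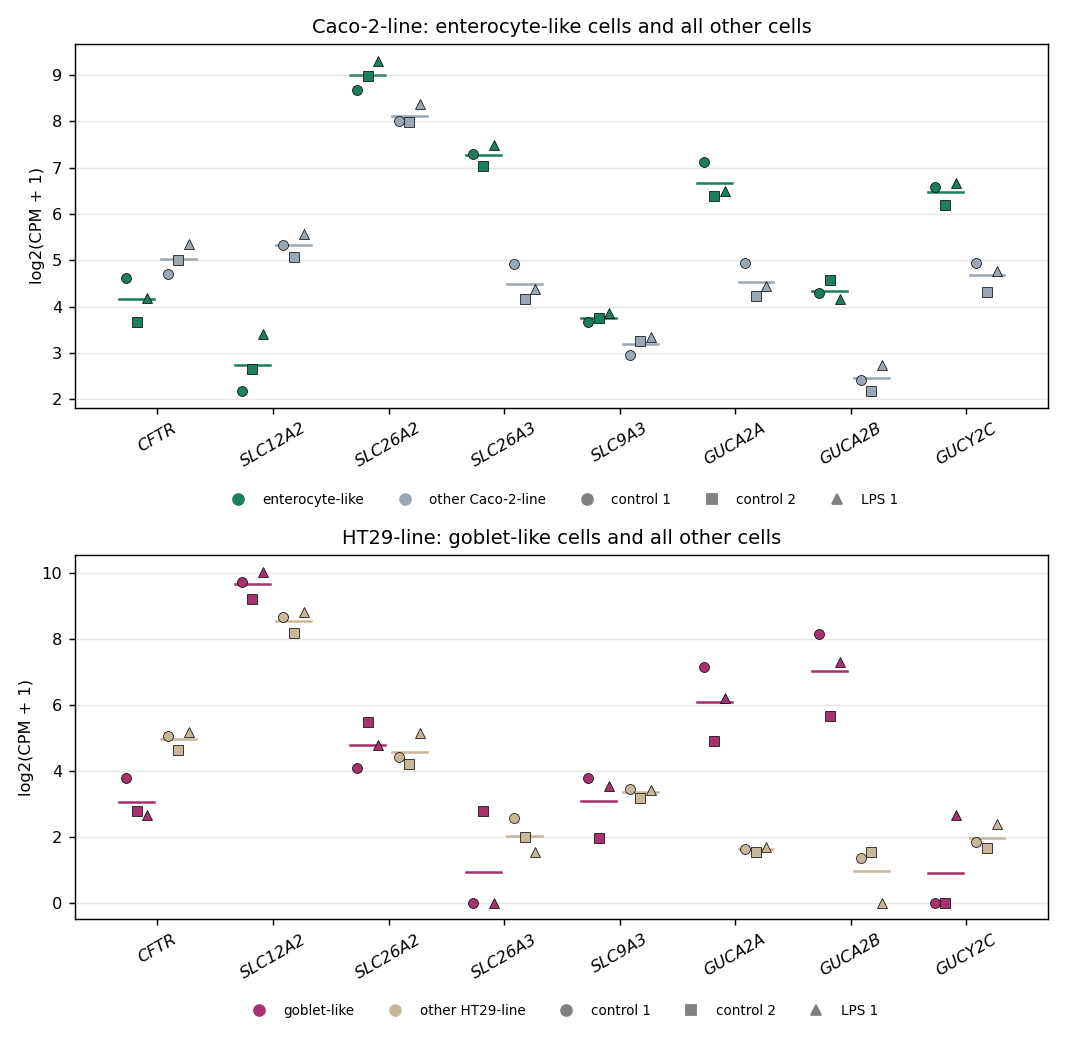
Level of each gene, as log2(CPM + 1), by library (circle and square, controls; triangle, LPS; line, mean of 3). In the upper panel, enterocyte-like cells (green) stood above the other Caco-2-line cells (grey) for SLC26A2, SLC26A3, SLC9A3 and the guanylin genes and below them for SLC12A2 and CFTR; in the lower panel, goblet-like cells (magenta) stood above the other HT29-line cells (tan) for GUCA2A, GUCA2B and SLC12A2 and below them for CFTR.

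Cells with both guanylins were counted as a description. Among enterocyte-like cells with a GUCA2A UMI, 11.3%, 15.4% and 11.9% also had a GUCA2B UMI, against 7.54%, 6.18% and 4.59% of those without. After thinning to 1500 UMIs, 3.17%, 5.08% and 2.90% stood against 3.07%, 3.21% and 1.76%, from 4, 3 and 2 cells with both, so that the difference was small and rested on few cells. After thinning, the receptor gene GUCY2C was found in 12.7%, 10.2% and 17.4% of the enterocyte-like cells with GUCA2A and in 13.1%, 9.44% and 15.3% of those without. At this depth no order can be read from the last pair.

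In the HT29-line, goblet-like cells (52, 84 and 60 cells) were set against the rest. They carried MUC2 at 342 ± 120.0 CPM (SD, n = 3), against 1.63 ± 0.53, and FCGBP at 1861 ± 213 CPM against 7.59 ± 4.59. Their cluster raised 8 of the 10 goblet markers. ZG16 and CLCA1 were not raised, and CLCA1 had no UMI in either line. Both guanylins were concentrated in goblet-like cells, SLC12A2 was 2.12-fold higher there and CFTR 3.60-fold lower. Of the 6 genes that could be tested, 3 were higher and 1 lower, beside 5.67% and 7.93% of the 9755 genes tested (13.6% in either direction). SLC26A3 and GUCY2C had too few UMIs for the test, with 0, 2 and 0 UMIs and 0, 0 and 1 UMIs in goblet-like cells.

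GUCA2B reached 285, 49.5 and 158 CPM in the goblet-like cells of control 1, control 2 and the LPS library. The other HT29-line cells held 1.56, 1.89 and 0 CPM, from 6, 7 and 0 UMIs. Goblet-like cells were 7.84%, 8.81% and 7.43% of HT29-line cells and gave 93.7%, 70.8% and 100% of its GUCA2B UMIs. A UMI was found in 34.6% of them in control 1 (exact 95% interval 22.0% to 49.1%), 14.3% in control 2 (7.61% to 23.6%) and 18.3% in the LPS library (9.52% to 30.4%), against 0.818%, 0.460% and 0 of 748 of the other cells, the last of which allows a share of up to 0.401% by a limit of 3 counts and 0.492% by the exact interval. In control 1, 1 goblet-like cell held 33 of the 89 UMIs of the class, and its level without that cell was 183 CPM. The log2 difference was 6.95 (SE 0.36, adjusted p = 3.50e-32), and over 15 alternatives it ran from 6.23 to 7.96, the latter without control 2, with an adjusted p of at most 1.15e-05. In this fit edgeR estimated 97.6 prior degrees of freedom beside 2 from the libraries, so the p rests mostly on a spread shared by all genes. The exact intervals of the shares cover counting error alone.

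GUCA2A followed at 141, 29.1 and 73.5 CPM against 2.08, 1.89 and 2.24 CPM (5.23, SE 0.38, adjusted p = 1.68e-22), with 4.48 without control 1 and 4.11 when no doublets were removed. With no doublets removed the goblet-like cluster also raised 6 enteroendocrine markers. The part of free RNA from Caco-2-line cells in the GUCA2A values of the other HT29-line cells was not tested. Both guanylins were highest in control 1 and lowest in control 2, and the spread between libraries was several-fold, while each goblet-like value lay above all values of the other cells. The order of the hormones was turned between the classes: in goblet-like cells GUCA2B exceeded GUCA2A in all 3 libraries, and in enterocyte-like cells GUCA2A exceeded GUCA2B in all 3. Goblet-like cells with both transcripts numbered 7, 2 and 4, which is 63.6%, 28.6% and 66.7% of those with GUCA2A, and GUCA2B was found in 26.8%, 13.0% and 13.0% of those without it. After thinning, 4, 1 and 1 cells had both, which is 66.7%, 25% and 20% of those with GUCA2A against 15.2%, 7.5% and 9.09% of those without, so these shares rest on few cells.

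SLC12A2 reached 854, 589 and 1056 CPM in goblet-like cells, the highest level of any of the 8 genes in these classes, against 411, 291 and 449 CPM in the other HT29-line cells (1.08, SE 0.10, adjusted p = 2.18e-16). CFTR was rare there, at 12.8, 5.83 and 5.25 CPM from 4, 2 and 1 UMIs, against 32.2, 23.8 and 35.6 CPM (-1.85, SE 0.47, adjusted p = 0.0021), and with DESeq2 it did not pass (adjusted p = 0.111). SLC26A2 stood at 15.996, 43.7 and 26.3 CPM against 20.2, 17.3 and 34.3 CPM (0.37, SE 0.35, adjusted p = 0.579), and passed at 1.06 under the cell minimums of control 1. SLC9A3 stood at 12.8, 2.91 and 10.5 CPM against 9.86, 8.10 and 9.62 CPM (-0.15, SE 0.60, adjusted p = 0.922). For both, the groups overlapped.

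The 17 clusters, 11 mostly of Caco-2-line cells (C1 to C11) and 6 mostly of HT29-line cells (H1 to H6), placed the genes more finely, and the values that follow are means ± SD of CPM over the 3 libraries, as a description. SLC26A3 was highest in the enterocyte-like C3 (155 ± 24.2), followed without overlap by C7 (82.1 ± 13.0). C7 had no name and a median of 3153 UMIs per cell. Its leading genes began with ITGA5, TAS2R30, AC008764.8, RIMS4 and MSH5. GUCY2C was as high in C7 (98.2 ± 24.2) as in C3 (89.2 ± 15.2), with overlapping ranges, and both lay above C4 (44.3 ± 10.7), led by GNRH2 and ZG16. SLC26A2 stood apart in C7, at 1029 ± 152 against 517 ± 112 in C3. C7 was thus the cluster with the most SLC26A2, and it held 33.3 ± 12.1 CPM of GUCA2A, against 103 ± 30.4 in C3.

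**Figure D3:**
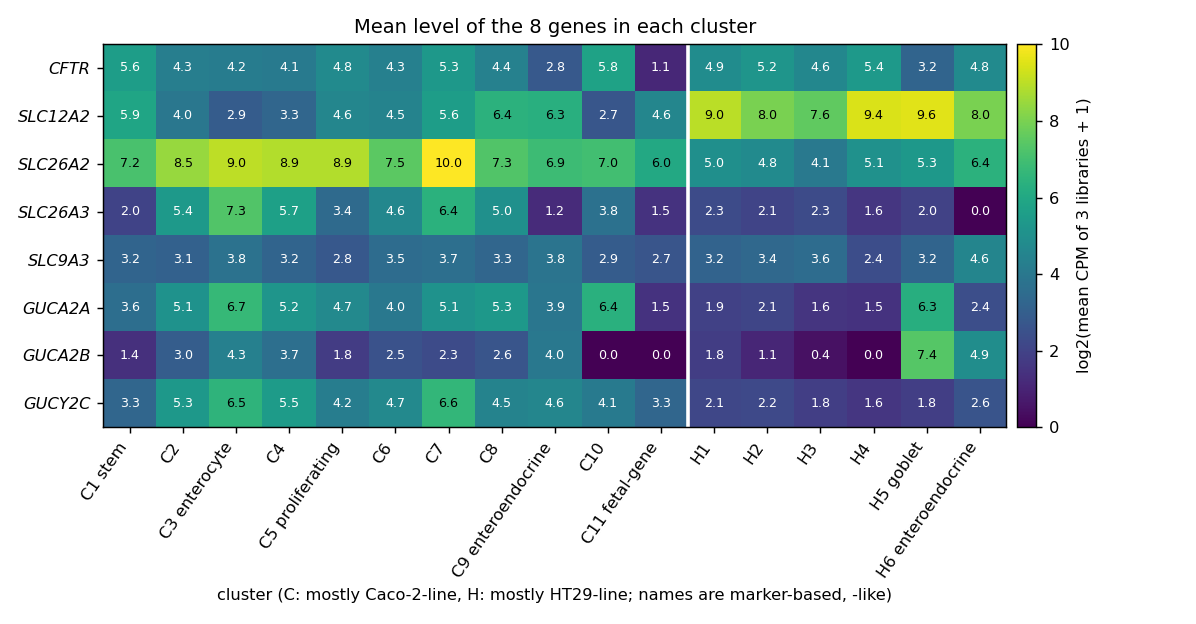
Mean level of each gene in each cluster, as log2 of the mean CPM of the 3 libraries plus 1, with the 11 clusters of mostly Caco-2-line cells left of the white line and the 6 of mostly HT29-line cells right of it. SLC12A2 was highest in the goblet-like H5 and H4, SLC26A2 in C7, SLC26A3 and GUCA2A in the enterocyte-like C3, and GUCA2B in H5.

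In the stem-like C1 (3899 cells), led by DKK1, PLA2G2A, ANKRD1 and LGR5, SLC26A3 fell to 3.03 ± 0.81 CPM, GUCA2A to 11.4 ± 1.53 and GUCY2C to 8.98 ± 4.01, while CFTR stood at 47.0 ± 15.5 and SLC12A2 at 57.5 ± 9.18. C1 was broad. At a Leiden resolution of 0.8 the stem-like cluster held 823 cells, and 1967 cells led by ANKRD1 and DKK1 made up a cluster with no name. The levels in C1 are thus not those of stem-like cells alone. CFTR was highest in C10 (53.1 ± 15.6, from 22 UMIs) and C1, and then declined with overlapping ranges through 12 further clusters to C4 (16.5 ± 3.66), below which the goblet-like H5 (8.46 ± 3.92), the enteroendocrine-like C9 and the fetal-gene-like C11 stood. Neighbours in this order did not differ beyond their spread apart from the step from C4 to H5. C10, led by STC1 and TMEM52B, held 81.6 ± 13.6 CPM of GUCA2A. SLC12A2 ran from 760 ± 190 in H5, 692 ± 235 in H4 (led by AQP1 and PYGB) and 502 ± 150 in H1 to 191 ± 61.4 in H3, and the lowest HT29-line cluster lay above each Caco-2-line cluster. SLC9A3 differed least, from 4.202 ± 3.66 to 22.8 ± 20.1 CPM, with every neighbouring pair overlapping.

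Over the 14 clusters with 20 or more cells in each library, the genes with the most similar profile were named by Pearson's r of log2(CPM + 1) among 11334 genes, as a description of points that share libraries. For SLC26A3 they were AC105411.1 (0.98), TM4SF20 (0.97) and LCT (0.97), the last the brush border lactase. GUCA2A was closest to TFF2 (0.92), KLK1 (0.92) and C2orf88 (0.91), and GUCA2B to TFF3 (0.89), ANO7 (0.83) and C17orf100 (0.82), with TFF2 and TFF3 being secreted trefoil peptides of mucous cells. GUCY2C was closest to SLC2A14, GPX3 and LRP4 (each 0.98) and SLC26A2 to SLC19A3 (0.99), TDP2 (0.98) and SLC36A1 (0.98). SLC12A2 was closest to TXLNA (0.98), PLXND1 (0.98) and EEF1A2 (0.97), and CFTR to JDP2 (0.94), SLC25A23 (0.92) and TGFBR2 (0.91). SLC9A3, with the flattest profile, reached 0.85 with AGPAT1, 0.80 with INTS12 and 0.76 with RASGEF1B. Among the 8 genes themselves, GUCY2C and SLC26A2 were the closest pair (0.94) and GUCY2C and SLC12A2 the most opposed (-0.87). The profiles span clusters of both lines, so the line differences given above enter each r. In the HT29-line clusters the UMIs of GUCY2C and SLC26A2 are not read as expression here.

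The lists of 104 further genes of these pathways were then read in the same comparisons. In the line comparison, 66 of them were tested that had no part in the line split, of which 26 were higher in the HT29-line, 25 higher in the Caco-2-line and 15 did not pass, beside 72.6% of all genes. SLC12A2 shared its side with the sodium pump subunit ATP1B1, at 1006 ± 41.0 CPM in the HT29-line against 249 ± 20.1 (SD, n = 3; log2 difference 1.95, SE 0.08), and with the basolateral potassium channel KCNQ1, at 11.8 ± 2.94 against 0.82 ± 0.11 CPM (3.76, SE 0.26). KCNE3, the subunit that joins KCNQ1 in the gut, lay on the other side, at 3.77 ± 0.58 against 17.9 ± 1.53 CPM (-2.33, SE 0.20). So did ATP1B3, another pump subunit that was used to split the lines and has no test here, at 62.6 ± 5.47 against 146 ± 10.3 CPM. STK39 (SPAK), a kinase that activates SLC12A2, stood at 43.9 ± 6.01 against 5.82 ± 0.26 CPM, SLC9A3R2 (NHERF2) at 98.5 ± 3.38 against 18.3 ± 1.76, the sodium channel subunit SCNN1A at 77.5 ± 6.26 against 11.7 ± 2.99 and the carbonic anhydrase CA9 at 194 ± 25.6 against 6.18 ± 1.07, but these 4 were among the genes that split the lines and have no test here.

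Of 7 scaffold and trafficking genes tested, 4 were higher in the Caco-2-line, 2 higher in the HT29-line and 1 did not pass. Of all genes, 38% were higher in the Caco-2-line and 34.6% in the HT29-line. PDZD3, a PDZ protein that binds GUCY2C, stood at 14.3 ± 2.15 CPM in the Caco-2-line against 1.52 ± 0.66 (log2 difference of the HT29-line -3.25, SE 0.26), SHANK2, which binds SLC9A3 and CFTR, at 28.4 ± 4.66 against 5.99 ± 1.11 (-2.31, SE 0.16) and PDZK1 at 47.4 ± 2.41 against 13.1 ± 3.24 (-1.94, SE 0.13). Higher in the HT29-line were MYO6, an apical myosin, at 97.4 ± 11.8 against 51.6 ± 2.86 CPM (0.85, SE 0.09) and CHP1, a partner of sodium-proton exchangers, at 87.1 ± 7.001 against 66.4 ± 7.56 (0.33, SE 0.09), both named after their values were seen. SLC9A3R1 (NHERF1) did not pass, at 176 ± 11.4 against 177 ± 21.1 CPM (-0.06, SE 0.08, adjusted p = 0.542). Of 12 genes of sulfate activation and use that were tested, 3 were higher in the HT29-line and 7 in the Caco-2-line. The shares of all genes were 34.6% and 38%. Among the 7 were the sulfotransferases SULT1B1, at 11.3 ± 3.58 CPM in the Caco-2-line against 1.59 ± 0.74 (-2.92, SE 0.26), and TPST1, at 10.6 ± 1.15 against 1.47 ± 0.47 (-2.90, SE 0.26). Of the 3, SLC35B2, named after its value was seen, stood at 44.3 ± 4.31 CPM in the HT29-line against 20.5 ± 1.52 (1.06, SE 0.11). PAPSS1 did not pass, at 34.1 ± 1.83 CPM in the HT29-line against 30.6 ± 2.35 (0.10, SE 0.11). PAPSS2 was used to split the lines and has no test here, at 62.5 ± 23.5 CPM in the HT29-line against 23.1 ± 2.57. PRKG2, the cGMP kinase downstream of GUCY2C, was low in both lines, at 1.81 ± 0.58 and 2.69 ± 0.69 CPM (-0.60, SE 0.35, adjusted p = 0.135). For PDZD3, SULT1B1 and TPST1, the part of free RNA from Caco-2-line cells in the low HT29-line values was not tested. Their differences are therefore not read as ratios of expression.

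In enterocyte-like cells, taken here from clusters made without these lists as well, 40 of 73 tested genes were higher, 8 lower and 25 did not pass, beside 56.8% of all 13380 genes tested (28.8% higher, 28% lower). Of 10 scaffold and trafficking genes, 8 were higher and 0 lower. SLC9A3R1 stood at 283 ± 26.6 CPM against 155 ± 10.2 (log2 difference 1.09, SE 0.06) and PDZD3 at 26.9 ± 5.12 against 11.9 ± 1.41 (1.397, SE 0.12). Of 13 genes of sulfate activation and use, 10 were higher and 1 lower. PAPSS2, which makes the active sulfate donor, was higher, at 43.1 ± 9.01 CPM against 19.2 ± 1.49 (1.37, SE 0.10), and its relative PAPSS1 lower, at 21.8 ± 2.37 against 32.3 ± 2.16 (-0.34, SE 0.11). The exporter of cyclic nucleotides ABCC4 fell with SLC12A2, from 9.04 ± 1.05 to 1.33 ± 0.51 CPM (-2.46, SE 0.31), while ATP1B1 rose from 194 ± 7.57 to 527 ± 68.1 (1.66, SE 0.06). The goblet-like class of these clusters also raised 6 enteroendocrine markers and was led by SST, so it was not goblet-like alone. In this class, 10 of 57 tested genes were higher, 8 lower and 39 did not pass, beside 17.6% of all 9674 genes tested (7.77% higher, 9.8% lower). ATP1B1 was lower there, at 610.1 ± 56.5 CPM against 1044 ± 53.5 (-0.82, SE 0.10), while SLC12A2 was higher in the narrower goblet-like class described before.

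The LPS library was set against the 2 controls in each line, to ask whether 24 h of LPS moved these genes. None of the 8 passed the test in either line, beside 0.0257% of 15566 genes in the Caco-2-line (4 genes) and 0.167% of 12012 genes in the HT29-line (20 genes). At an unadjusted p under 0.05 there were 2 of the 8 in each line, CFTR and SLC26A2 in the Caco-2-line and GUCA2B and SLC26A2 in the HT29-line, beside 5.83% and 2.997% of all genes. With DESeq2 none of the 8 passed either. With 1 treated library the fit has 1 residual degree of freedom and takes the LPS library to vary as the controls do, so a library effect and LPS cannot be told apart. The prior was 11.91 degrees of freedom in the Caco-2-line and infinite in the HT29-line and in the test between the lines below. These tests too rest mostly on a spread shared by all genes.

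**Figure D4:**
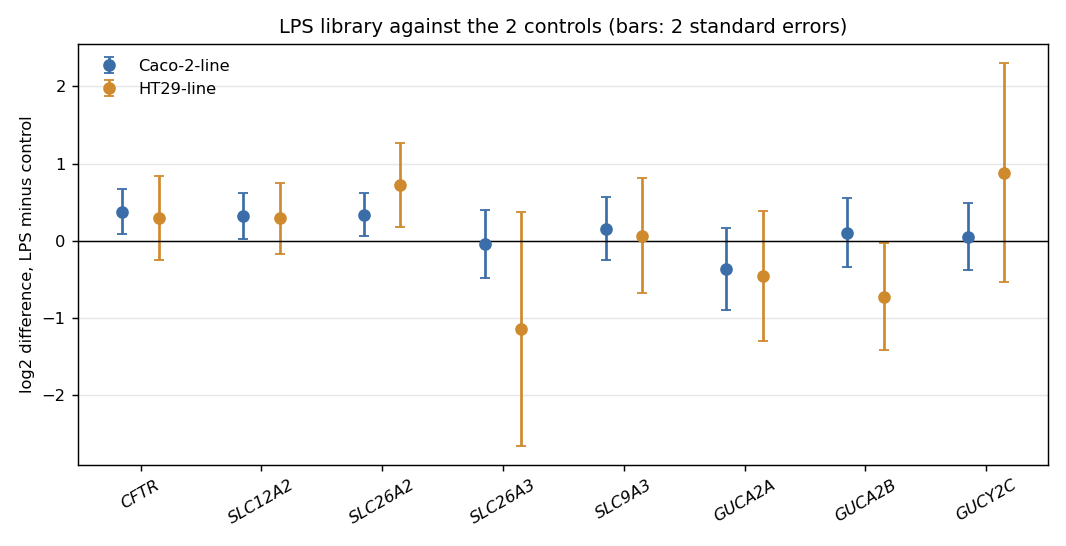
Log2 difference between the LPS library and the 2 controls in Caco-2-line cells (blue) and HT29-line cells (orange), with bars of 2 standard errors. In the HT29-line, the UMIs of SLC26A2, SLC26A3 and GUCY2C are not read as expression here. CFTR, SLC12A2, SLC26A2, SLC9A3 and GUCY2C lay above 0 in both lines, the bars were wide in the HT29-line for SLC26A3 and GUCY2C, and no gene passed an adjusted p of 0.05.

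SLC26A2 was higher than in both controls in each line, though its UMIs in the HT29-line are not read as expression, as given above. It stood at 376 CPM in the Caco-2-line of the LPS library, above 280.2 and 285 in the controls (log2 difference 0.33, SE 0.14, adjusted p = 0.814), and at 33.8 CPM in the HT29-line, above 19.9 and 19.5 (0.72, SE 0.27, adjusted p = 1.00). SLC12A2 and CFTR were also higher than in both controls in each line. The SLC12A2 values were 41.2 CPM against 33.3 and 29.2 in the Caco-2-line (0.32, SE 0.15, adjusted p = 0.814), and CFTR differed by 0.37 there (SE 0.15, adjusted p = 0.814). The LPS library had the lowest median depth per cell, and with every cell thinned to 1500 UMIs the Caco-2-line differences of CFTR, SLC12A2 and SLC26A2 were 0.44, 0.40 and 0.43. GUCA2A (-0.37, SE 0.27), SLC26A3 (-0.05, SE 0.22), GUCY2C (0.05, SE 0.22), GUCA2B (0.10, SE 0.23) and SLC9A3 (0.15, SE 0.20) differed by less in the Caco-2-line or went with wide errors. GUCA2B in the HT29-line, at 9.06 CPM with LPS between control values of 22.8 and 5.93, differed by -0.73 (SE 0.35, adjusted p = 1.00), and against control 2 alone by 0.56. A test of whether the LPS difference itself differed between the lines called none of the 8, beside 0.113% of 15106 genes (17 genes), with 0 of the 8 and 3.35% of all genes at an unadjusted p under 0.05.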

How the data were processed

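Single-cell libraries (10x Chromium 3′) of 2 untreated co-cultures and 1 treated with LPS were used. The deposited values are raw UMI counts per gene and barcode, made by the authors with Cell Ranger (version 3.1.0 per the file headers) on GRCh38. The minimums that follow had not been applied to them. Over all deposited barcodes the medians were 5025, 3656 and 3009 UMIs in control 1, control 2 and the LPS library. Cells needed 1500 UMIs and 700 genes (higher minimums in control 1) and at most 20% mitochondrial counts. A fixed share, the 6% with the highest Scrublet score per library, was then removed as doublets. Scrublet's own threshold called 1, 0 and 0 cells in control 1, control 2 and the LPS library. No minimum for the LPS library is given in the sources used here, so that of control 2 was applied. Lines were called by a 2-component mixture of line signature UMIs at a posterior of 0.9. Clusters followed the study's steps (SCTransform, integration on 3000 features, 50 components, 15 neighbours, Leiden resolution 0.5) in Seurat 5.3.0 and scanpy 1.11.5, with the 8 genes left out of the features. Clusters in which most called cells were HT29-line were then pooled and clustered again at a resolution of 0.4, which gave H1 to H6. Doublets, minimums, scaling, depth, line calls and clustering were varied.

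Counts were summed per group and library and tested with edgeR 4.0.16 (quasi-likelihood, TMM, filterByExpr, Benjamini-Hochberg adjustment over all genes tested, 2-sided), with the library as a block between lines and classes, since each library supplied both sums of a pair. DESeq2 1.42.0 was an alternative. The tests were also run on simulated counts drawn independently for each sum with no library effect, so that run does not check effects of a library. The 8 genes and the gene lists were chosen with earlier results of these data known. Named besides the 8 were the 5 pathway genes with the largest line difference in each direction (adjusted p under 0.05, 10 CPM or more in the higher line), their direct partners and the 3 genes with the most similar profile. The motifs were chosen after the promoters had been read, which carry RefSeq's GRCh38.p14 coordinates. Exact intervals of shares of cells cover counting error alone, and intervals at 2 SE come from the edgeR fits.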

Additional observations from a re-analysis of the deposited data

How the results depend on the processing

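All 120 alternative values of the 8 genes in the enterocyte-like comparison kept their direction and call. In the line comparison 90 of 96 did, and in the goblet-like comparison 82 of 88. The line difference of CFTR ran from -0.28 to 0.043 with 1 library left out. That of SLC9A3 was 0.051 with no doublets removed and ran from -0.19 to 0.15 with 1 library left out, and that of PAPSS1 was -0.0014 under upper quartile scaling. In goblet-like cells SLC26A2 ran from -0.37 to 0.66 and SLC9A3 from -0.63 to 0.28 with 1 library left out, and SLC9A3 was 0.33 with no doublets removed and 0.28 with pathway genes left out of the features. With no doublets removed, and with pathway genes left out, the goblet-like cluster also raised enteroendocrine markers. With LPS, thinning gave -0.070 for SLC9A3 and -0.12 for GUCA2B in the Caco-2-line, the minimums of control 1 gave -0.0069 for GUCY2C there, and the line of the cell's cluster gave -0.067 for SLC9A3 in the HT29-line. SLC9A2 in enterocyte-like cells was 0.026 with pathway genes kept in the features. None of these reversed values had passed the test, and the cause was not tested.

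Counts of all genes called fell to 4513 when cells were thinned to 1500 UMIs in the enterocyte-like comparison, and to 553 with DESeq2 and 593 with thinning in the goblet-like one, where fewer genes were tested after thinning (6023). For LPS in the Caco-2-line, 4 became 23 with upper quartile scaling, 51 with no filter, 18 with no doublets removed, 18 at a posterior of 0.5, 59 by the line of the cell's cluster and 25 with thinning. For LPS in the HT29-line, 20 became 4 with DESeq2, 13 with thinning and 0 in edgeR with no filter, with 221 at an unadjusted p under 0.05. For the difference between the lines, 17 became 2 with DESeq2, 9 with no doublets removed, 7 at a posterior of 0.5, 8 by the line of the cell's cluster and 8 with thinning. With no replicate block, 9736, 5964 and 925 genes were called between lines, in enterocyte-like and in goblet-like cells, in place of 10189, 7357 and 1327. Leaving out 1 library gave 9518 to 9612, 5831 to 6794 and 886 to 1063. No paired analysis was possible because the controls and the LPS library share only replicate number 1. Upper quartile scaling shifted the line differences of 137 genes by a median of -0.10, over the genes of the lists, and no called difference of the 8 genes changed direction. Low UMI counts limit SLC9A3 throughout, SLC26A3 and GUCY2C in the HT29-line, and CFTR in goblet-like cells.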
